A study of Homo sapiens with 6 samples.

Results

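The BCL2 family decides whether a cell keeps its mitochondria intact or releases the proteins that activate caspases. The 10 family genes described here were chosen by symbol, as the best known survival and death genes of the family. They are the anti-apoptotic genes BCL2, BCL2L1, MCL1 and BCL2A1, the effector genes BAX and BAK1, and the BH3-only genes BID, BBC3, PMAIP1 and BCL2L11. All 10 were found among the 58735 genes of the count table, and 9 of them were among the 15078 genes with enough counts for a test. RNA was sequenced from Meg-01, an established human megakaryoblast cell line that models megakaryocyte precursors. In all, 3 libraries came from untreated control cells and 3 from cells given 500 µM sodium propionate (C3), a short-chain fatty acid of gut bacteria, for 48 h according to the labels. No time is given in the labels of the control cells. In the methods, cells were incubated for 24 h or 48 h. The replicates of a group are described as technical, so p-values measure the spread between these libraries and need not cover independent cultures.

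Anti-apoptotic members hold the effectors BAX and BAK1 in check. BH3-only members sense stress, bind the anti-apoptotic members through their BH3 helix, and some of them activate the effectors directly, after which BAX and BAK1 form pores in the outer mitochondrial membrane. In the megakaryocyte lineage, BCL-XL (the main product of BCL2L1) and MCL1 are known as the survival factors, and BAK1 and BAX as the proteins that end the life of platelets.

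The BH3-only members are named after a feature of the family, so matches to it are not independent of the choice of members. This feature is the BH3 motif. Its core was searched in the proteins translated from the MANE Select transcripts of GENCODE release 44 (GRCh38) as a leucine, any 3 residues, then glycine or alanine, then aspartate. Exactly 1 match was found in 9 of the 10 members, and 0 in BCL2A1. The core is short, and 25.2% of 19061 MANE Select proteins hold a match somewhere, so a match is only a description. The 27 coding bases around the core of the 9 members are shown. In the BH3-only members, this stretch belongs to the helix that binds the anti-apoptotic members. Capitals mark the codon of the leucine and the codons of the last residue pair.
BCL2: ctgaccCTCcgccaggccGGCGACgac
BCL2L1: caagcgCTGagggaggcaGGCGACgag
MCL1: gagaccTTAcgacgggttGGGGATggc
BAX: gagtgtCTCaagcgcatcGGGGACgaa
BAK1: cggcagCTCgccatcatcGGGGACgac
BID: aggcacCTCgcccaggtcGGGGACagc
BBC3: gcccagCTGcggcggatgGCGGACgac
PMAIP1: actcaaCTCaggagatttGGAGACaaa
BCL2L11: caagagTTGcggcgtattGGAGACgag

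BBC3 was the only one of the 9 with an alanine codon in place of the glycine codon. The bases of BID lie in exon 4 (chr22:17739424-17739450, reverse strand). Those of BAX (chr19:48955781-48955807, forward), BBC3 (chr19:47226588-47226614, reverse) and BCL2L11 (chr2:111150097-111150123, forward) lie in exon 3 of their transcripts. Those of BCL2 (chr18:63318358-63318384, reverse), BCL2L1 (chr20:31721931-31721957, reverse) and PMAIP1 (chr18:59902667-59902693, forward) lie in exon 2. The bases of BAK1 (chr6:33575396-33575422, reverse) are in exon 4 and those of MCL1 (chr1:150578874-150578900, reverse) in exon 1. All are coding positions of GRCh38.

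Library totals were between 16159449 and 22821722 counts. Of 12 megakaryocyte and platelet markers, 10 had counts, led by ITGA2B, FLI1, GP1BA and GATA1, whereas GP1BB and PF4 were at 0 in every library. The summed level of these 12 genes, mostly ITGA2B, was 1169 to 1224 CPM in control and 1098 to 1212 CPM in C3 libraries. CPM are counts scaled to a common library total. The sum hides single markers that differed without overlap. GP1BA had 134.6 to 143.7 CPM in control and 98.6 to 100.7 CPM in C3 libraries. TUBB1 (2.05 to 2.26 and 0.488 to 1.03 CPM) and PPBP (0.74 to 1.025 and 0.257 to 0.673 CPM) were also lower. ITGB3 was higher (9.42 to 10.18 and 11.72 to 13.29 CPM), and the other markers with counts overlapped. Among markers of other lineages, 8 erythroid genes summed to 36.1 to 38.2 CPM in control and 42.1 to 44.8 CPM in C3 libraries, and 5 myeloid genes to 48.0 to 50.5 and 38.6 to 39.6 CPM. The 5 lymphoid genes, nearly all PTPRC, gave 222 to 231 and 211 to 235 CPM with MS4A1 at 0, and 4 fibroblast genes 0.705 to 1.10 and 1.95 to 2.31 CPM. Mitochondrial genes held 4.16% to 5.51% of the counts in control and 3.51% to 3.87% in C3 libraries. Over all tested genes, edgeR's quasi-likelihood test called 1658 genes higher and 1323 lower after C3 at an adjusted p below 0.05.

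The RNA levels of these genes in C3 cells lay close to those of control cells. Of the 9 tested members, 1 was lower after C3 (BID, adjusted p = 0.00913) and 0 were higher by edgeR's test at an adjusted p below 0.05. DESeq2 and limma-voom gave the same numbers, and BID was also the only member with an unadjusted p below 0.05. Of all tested genes, 8.77% were called lower and 11.0% higher, so 1 of 9 members lower is near the share of genes in general and is no result about the members as a group. With scaling by library size alone, 0 members were called, while 2303 genes were higher and 611 lower, which moved the higher share of all calls from 55.6% to 79.0%. By edgeR, DESeq2 and limma-voom, 0 members were differentially expressed genes (DEGs) under the study's gates, an adjusted p below 0.01 with a fold change above 1.3, which 6.52% of all tested genes passed. The control and C3 libraries did not overlap in 1 of the 9 members and in 34.4% of all tested genes. The median log2 fold change was -0.04 over the members and 0.0021 over all tested genes.

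**Figure D1:**
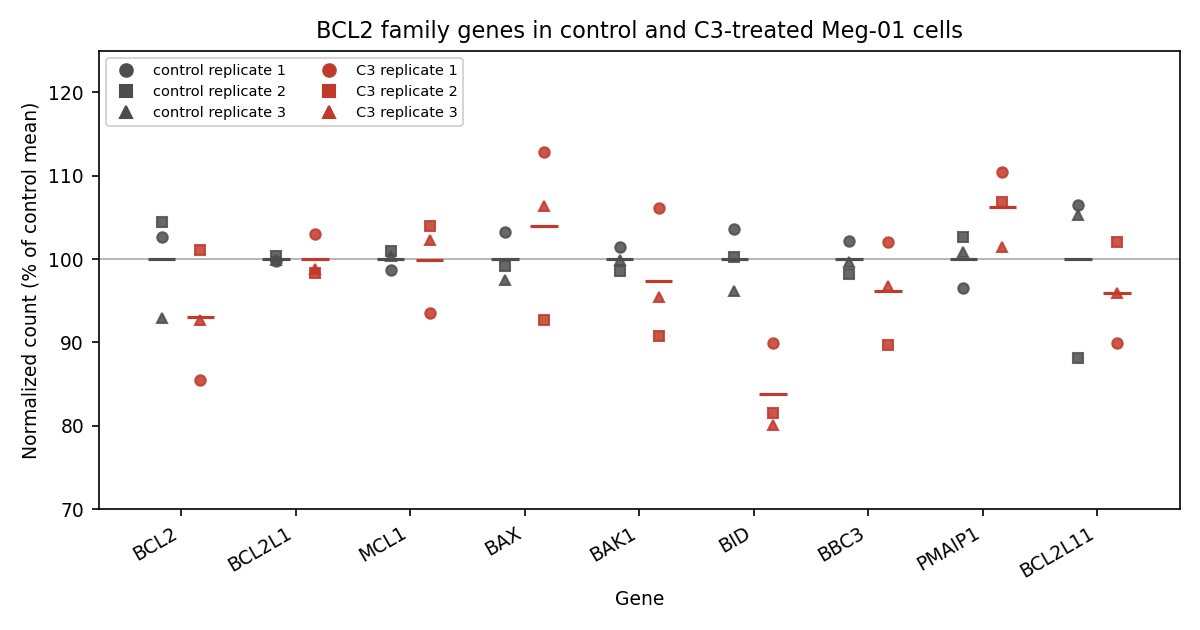
Normalized counts of the 9 tested genes in each library, as a percentage of the mean of the 3 control libraries (vertical axis, which does not start at 0). Points are libraries, marked by replicate number, and short lines are group means. BID is the only one of these genes whose C3 libraries (80.0% to 89.9%) all lie on the same side of the control libraries (96.1% to 104%).

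Among the BH3-only genes, BID encodes the protein that caspase-8 cleaves to link death receptors to mitochondria. The gene (chr22:17734138-17774770, reverse strand) has no exon bases in common with another annotated gene. Its normalized counts were 1221, 1182 and 1133 in control replicates 1 to 3 and 1059.6, 961 and 943 in C3 replicates 1 to 3. All C3 libraries were below all control libraries. The means were 1179 ± 43.9 and 988 ± 62.7 (SD, n = 3 libraries each), a log2 fold change of -0.26 (SE 0.069, 95% confidence interval -0.40 to -0.12), or 1.20-fold lower, by edgeR. The exact two-sided permutation test gave 0.1, the smallest p that 3 libraries against 3 allow. The call was lost without control replicate 1 (-0.22, adjusted p = 0.0639 by edgeR), without C3 replicate 3 (-0.22, adjusted p = 0.0826) and with scaling by library size alone (-0.19, adjusted p = 0.0617). The lower mitochondrial share and the other marker levels of the C3 libraries move with this result, and their part in it was not tested. In a bulk sample, less BID RNA per cell and fewer cells with BID RNA cannot be told apart.

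The other 3 BH3-only genes did not pass the test. BBC3 encodes PUMA and PMAIP1 encodes NOXA, both known to be induced by cell stress, and BCL2L11 encodes BIM, which is known as the main death signal of blood cells deprived of growth factors. Normalized counts of PMAIP1 were 405, 431 and 423 in control and 463, 448 and 425 in C3 libraries, with overlap at control replicate 2. Its log2 fold change was 0.09 (95% confidence interval -0.09 to 0.26, edgeR). BBC3 had 456, 438 and 444 in control and 455, 400.05 and 431 in C3 libraries, where C3 replicate 1 lay inside the control range and the other C3 libraries below it. Its log2 fold change was -0.06 (-0.23 to 0.12). The value was -0.163 after correction for GC content and ranged from -0.0966 to -0.00852 with each library left out. BCL2L11 had 441, 365 and 436 in control and 372, 422 and 397 in C3 libraries, so all C3 libraries lay between the lowest and the highest control library. Its log2 fold change was -0.06 (-0.25 to 0.13). Of the exon bases of BCL2L11, 10.8% overlap MIR4435-2HG on the other strand. Whether counting used the strand is not stated, which leaves reads from those bases uncertain.

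The anti-apoptotic genes BCL2L1 and MCL1 had almost the same means in both groups. BCL2L1 had normalized counts of 2377.5, 2394 and 2381 in control and 2455, 2345 and 2355 in C3 libraries. C3 replicate 1 lay above all control libraries and the other C3 libraries below them. The means were 2384 ± 8.94 and 2385 ± 60.9 (SD, n = 3), with a log2 fold change of -0.000060 and a 95% confidence interval of -0.12 to 0.12. Of its exon bases, 41.3% are shared with the antisense gene ABALON, so some reads of this locus are uncertain. The counts are per gene and do not separate BCL-XL from BCL-XS, a splice form of BCL2L1 known to promote death.

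MCL1, a short-lived protein that cells must keep making, had normalized counts of 2512, 2570.5 and 2556 in control and 2381, 2647 and 2603.5 in C3 libraries. C3 replicate 1 was the lowest of the 6 libraries and the other C3 libraries were the highest. The log2 fold change was -0.00037 with a 95% confidence interval of -0.13 to 0.13 by edgeR. BCL2 had 747, 760.3 and 677 in control and 623, 736 and 675 in C3 libraries, with 1 C3 library inside the control range and the others below it. Its log2 fold change of -0.10 (SE 0.078, 95% confidence interval -0.26 to 0.06) had an adjusted p of 0.394 by edgeR. In this fit it was the furthest from 0 after that of BID. The order differed in some other fits. With library size alone, BCL2 had -0.0278 and PMAIP1 0.159. After correction for GC content, BCL2 had -0.0805 and BBC3 -0.163. Without C3 replicate 1, BCL2 had -0.0469.

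BCL2A1, an anti-apoptotic gene typical of activated blood cells, was barely detected. Its raw counts were 0, 4 and 0 in control and 2, 1 and 0 in C3 libraries, below the limit for the test. A group total of 4 against 3 counts allows no comparison at this depth, where a count of 0 over the control libraries would still allow 3 counts or 0.0574 CPM. Such limits cover counting error only.

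The effector genes BAX and BAK1 did not pass the test either. BAX had normalized counts of 1449.8, 1391 and 1368 in control and 1584, 1301 and 1493 in C3 libraries. C3 replicate 2 was the lowest of all 6 libraries and the other C3 libraries the highest. The log2 fold change was 0.06 (95% confidence interval -0.09 to 0.20). BAK1 had 836, 812 and 823 in control and 874, 747 and 786 in C3 libraries, with C3 replicate 1 above the control range and the others below it, and a log2 fold change of -0.04 (-0.19 to 0.11).

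Across the 8 tested members that did not pass, the 95% confidence intervals stayed within log2 values of -0.26 and 0.26, or 1.20-fold in either direction. Each interval covers a single gene and is not adjusted for the number of genes. The adjusted p-values of these 8 genes ranged from 0.394 to 0.999 by edgeR, and none of them passed in any of the 15 alternative fits. The C3 libraries differed more among themselves than the control libraries for several members. The standard deviation of the normalized count was 145 in C3 against 42.0 in control libraries for BAX, 65.0 against 11.7 for BAK1 and 143 against 30.7 for MCL1. C3 replicate 1 was the highest C3 library for BAX, BAK1, BCL2L1, BBC3, PMAIP1 and BID, and the lowest for BCL2, MCL1 and BCL2L11. Over all tested genes, the chi-square per degree of freedom between libraries of a group was 7.58 and 6.72 for C3 replicate 1 against the other C3 libraries, which gave 2.94 between themselves. Control replicate 3 likewise gave 8.17 and 5.26 against the other control libraries, which gave 2.42. The part of these libraries in the pattern of the members was not tested.

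**Figure D2:**
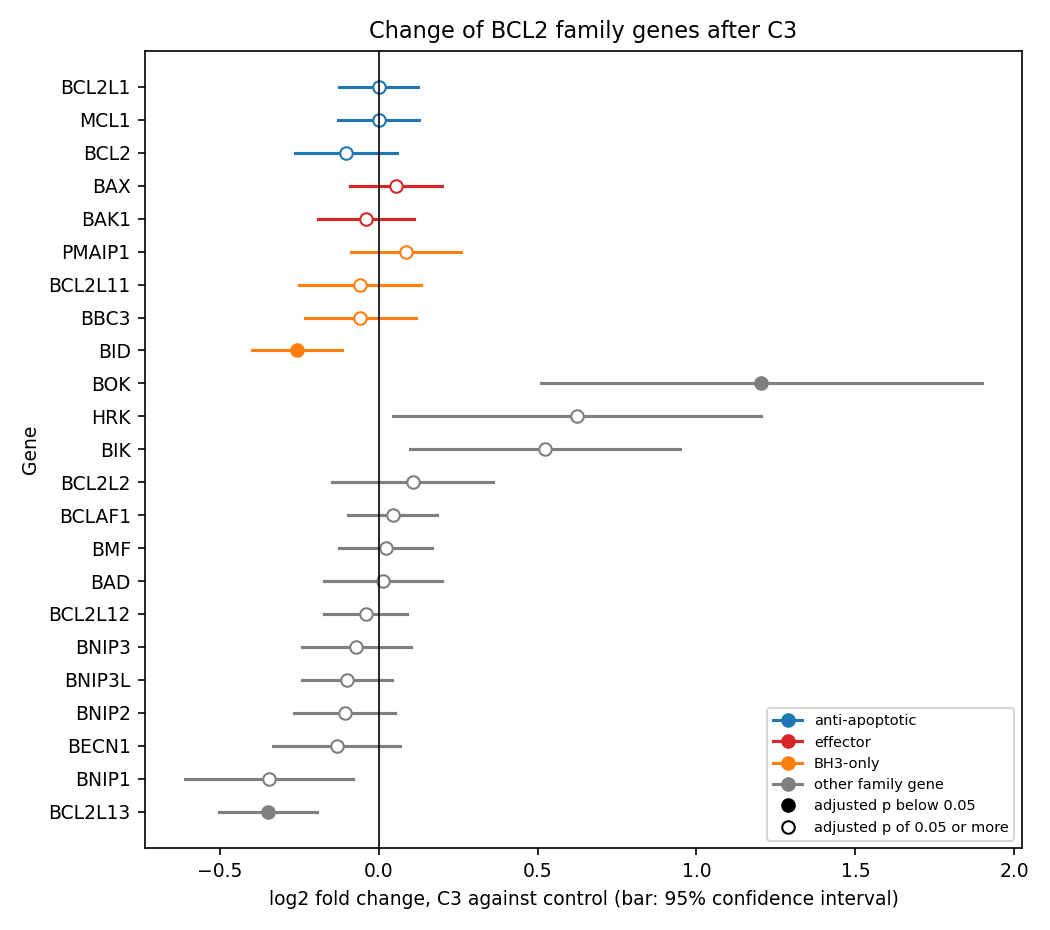
Log2 fold change of C3 against control by edgeR for the 9 tested members, coloured by role, and for 14 other family genes in grey. Bars are 95% confidence intervals, and filled points have an adjusted p below 0.05. BID, BCL2L13 and BOK are the filled points.

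The levels of the members differed far more than C3 moved them. As CPM per kb of merged exon length, BCL2L1 had 30.5 ± 0.114 in control cells and BAX 29.1 ± 0.871, and the ranges of these highest members over the 6 libraries overlapped. MCL1 (21.95 ± 0.264) and BAK1 (19.97 ± 0.283) came next and overlapped with each other. BID followed with 14.3 ± 0.532 in control and 11.99 ± 0.761 in C3 cells, then PMAIP1 with 10.3 ± 0.327 and BBC3 with 7.51 ± 0.150 in control cells (SD, n = 3). BCL2L11 (3.29 ± 0.338) and BCL2 (3.10 ± 0.191) were lowest among the tested members and overlapped. The level of BCL2L1 per kb was above that of 90.0% of tested genes, and that of BCL2 above 47.2%. The order rests on the length of all annotated exons, which is 12612 bases for BCL2 and 2186 for PMAIP1, so a gene with long unused exons is placed too low. C3 left the order of the means as it was in control cells.

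**Figure D3:**
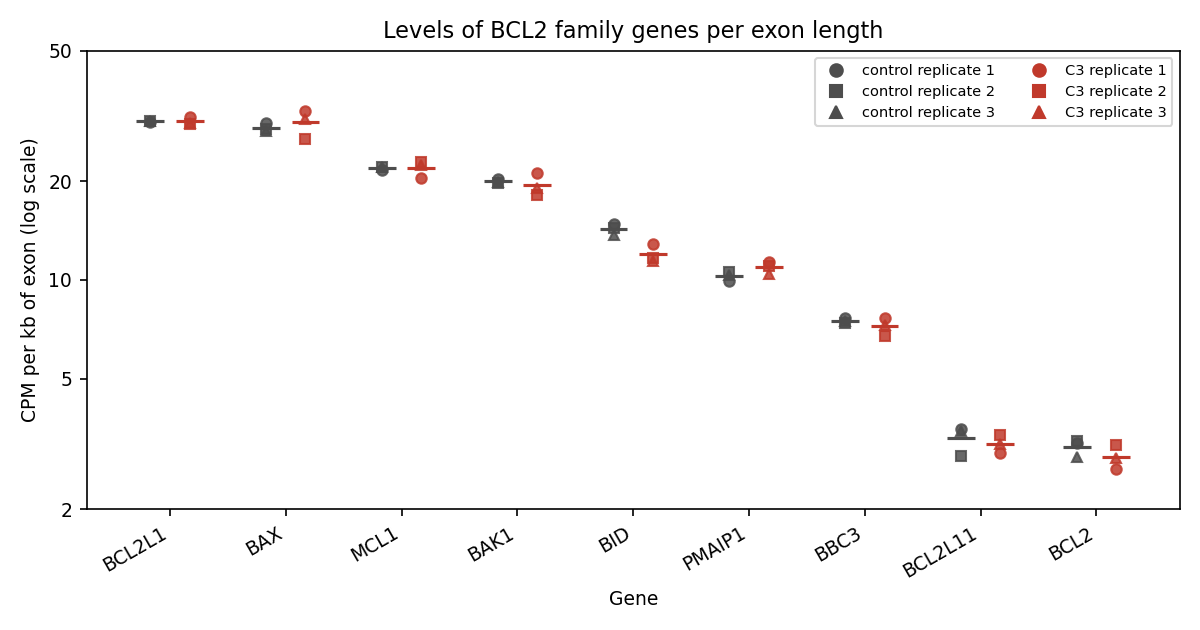
Levels of the 9 tested members in CPM per kb of exon (log axis) in each library, ordered by the control mean, with control in grey and C3 in red. The levels run from about 30.5 for BCL2L1 to 3.10 for BCL2, and the groups lie close together within each gene.

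The outcome of the family is thought to depend on the balance between its members, so 5 ratios within a library, which need no scaling between libraries, were compared. The log2 ratio of BAX to BCL2 counts was 0.96, 0.87 and 1.02 in control and 1.35, 0.82 and 1.14 in C3 libraries. The control values sat inside the wider C3 range, and the difference of 0.16 gave an exact two-sided permutation p of 0.5. PMAIP1 to MCL1, a pair in which NOXA is known to bind MCL1, was -2.63, -2.58 and -2.60 in control and -2.36, -2.56 and -2.61 in C3 libraries. The difference was 0.09 (exact permutation p = 0.4). BAK1 to MCL1 differed by -0.04 (exact permutation p = 0.8), BCL2L11 to BCL2L1 by -0.06 (exact p = 0.5) and BCL2L1 to MCL1 by 0.0028 (exact p = 1.0). The groups overlapped in all 5 ratios. This test cannot go below 0.1 with 3 libraries against 3, and the ratios compare raw counts of genes of unlike length.

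**Figure D4:**
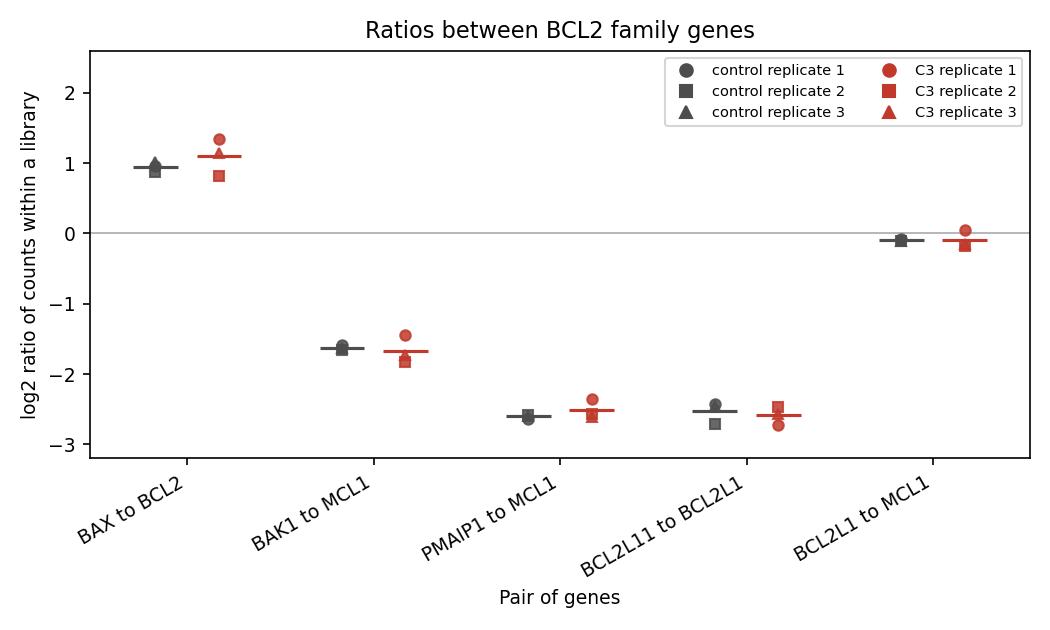
Log2 ratio of counts between pairs of family genes within each library (vertical axis), with control in grey and C3 in red and short lines for group means. In each of the 5 pairs the groups overlap.

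Among 17 further genes of the family or named after it, 14 were tested, with a median log2 fold change of -0.01. After C3, 1 was higher (7.14%) and 1 lower (7.14%), beside 11.0% and 8.77% of all tested genes. BOK, a relative of BAX and BAK1, had normalized counts of 11.8, 14.8 and 10.7 in control and 34.1, 25.8 and 27.4 in C3 libraries. The groups did not overlap at this low level, and edgeR gave a log2 fold change of 1.20 with an SE of 0.34 (adjusted p = 0.0125). The call was lost with DESeq2 (adjusted p = 0.0551), and 7.50% of the exon bases of BOK overlap BOK-AS1 on the other strand. BCL2L13, a mitochondrial member known as a mitophagy receptor, had 775, 721 and 710.45 in control and 607, 559 and 570.1 in C3 libraries, again without overlap. edgeR put the log2 fold change at -0.35 with an SE of 0.075 (adjusted p = 0.00159), and the call held in all 15 alternative fits.

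The BH3-only genes BIK and HRK and the family-named BNIP1 had groups that did not overlap but did not pass the test. They are named after their values were seen. Of all tested genes, 34.4% had groups without overlap, so the lack of overlap is no result about these genes. BIK had a log2 fold change of 0.52 (adjusted p = 0.0749), HRK of 0.62 (adjusted p = 0.124) and BNIP1 of -0.35 (adjusted p = 0.0581), all by edgeR. BIK passed with library size alone (0.0458), with the replicate block (0.0471) and without control replicate 3 (0.033). Without control replicate 2 its log2 fold change fell to 0.327 (adjusted p = 0.359 by edgeR), and DESeq2 gave an adjusted p of 0.206. BNIP1 passed with the block (0.0444), after GC correction (0.0425) and without control replicate 2 (0.0484). BCL2L2, BAD, BMF, BCL2L12, BNIP2, BNIP3, BNIP3L, BECN1 and BCLAF1 lay between -0.13 and 0.11 on the log2 scale. BCL2L10, BCL2L14 and BCL2L15 had too few counts.

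Genes upstream and downstream of the family were read from 4 further lists written from general knowledge of the pathway. Of 20 tested genes of mitochondrial release and caspase activation, 1 was higher and 2 lower, with a median log2 fold change of -0.10. VDAC3, a channel of the outer mitochondrial membrane, fell from a mean of 3452 ± 202 in control to 2621 ± 79.7 in C3 libraries (SD, n = 3; log2 fold change -0.40, adjusted p = 6.5e-05 by edgeR). ENDOG, a mitochondrial nuclease, fell by 0.37 on the log2 scale (adjusted p = 0.00401), with 40.1% of its exon bases shared with genes of the other strand. Its call was lost without control replicate 1 (0.0632) and without C3 replicate 3 (0.0667). APAF1, the scaffold of the apoptosome, was the gene called higher (0.26, adjusted p = 0.0206) and is named after its value was seen. It lost the call with DESeq2 (0.0623) and without control replicate 2, C3 replicate 2 or C3 replicate 3 (0.102, 0.132 and 0.0733).

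Of 14 tested death receptor genes, 2 were higher (14.3%) and 2 lower (14.3%), beside 11.0% and 8.77% of all tested genes. TNFRSF10B, a receptor of the death ligand TRAIL, rose from a mean of 841 ± 30.2 in control to 1159 ± 28.8 in C3 libraries (SD, n = 3; log2 fold change 0.46, adjusted p = 2.0e-05 by edgeR) and was a DEG. TNFRSF1A, the main TNF receptor, fell from 3028 ± 72.7 to 2355 ± 142 (log2 fold change -0.36, adjusted p = 1.8e-04, edgeR). Both calls held in all 15 alternative fits. The related TRAIL receptor TNFRSF10A (0.27) and the kinase RIPK1 (-0.26) were the other calls and are named after their values were seen. TNFRSF10A lost its call with DESeq2 (0.058) and without control replicate 3 (0.0627), RIPK1 with library size alone (0.0801) and without control replicate 1 (0.0928) or C3 replicate 3 (0.0775).

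Of 20 tested genes that regulate transcription of family members, 1 was higher and 2 lower. TP63, a transcription factor known from epithelial stem cells, had normalized counts of 11.8, 10.6 and 19.1 in control and 39.8, 46.9 and 36.1 in C3 libraries (log2 fold change 1.57, adjusted p = 8.9e-04, edgeR). NFKB1, a subunit of NF-kappaB, had 1269, 1255 and 1257 in control and 1023, 1157 and 1026 in C3 libraries, without overlap (log2 fold change -0.24, adjusted p = 0.0144, edgeR). Its call was lost with library size alone (0.12) and without control replicate 1 (0.0662), control replicate 2 (0.0566) or C3 replicate 3 (0.11). STAT5A was the other gene called lower (-0.22, adjusted p = 0.0259) and is named after its value was seen. It lost the call with library size alone (0.116) and without control replicate 1 (0.146), control replicate 2 (0.125), C3 replicate 2 (0.17) or C3 replicate 3 (0.112). Of 14 tested genes that control the stability of family proteins, 0 were higher and 2 lower (14.3%) by edgeR, beside the same shares of all tested genes. At an unadjusted p below 0.05, 2 were higher (HUWE1 and BAG3) and 3 lower (BTRC, TPT1 and BAG6), of which HUWE1, BAG3 and BAG6 are named after their values were seen, beside 4846 of all 15078 tested genes. DESeq2 called 0 higher and 3 lower at an adjusted p below 0.05. BTRC, a ubiquitin ligase subunit, fell by 0.34 on the log2 scale (adjusted p = 0.00184). TPT1, a gene with many processed pseudogenes, had -0.21 (adjusted p = 0.0429). It lost the call in 7 of 15 alternative fits, among them each without a C3 library and those without control replicate 2 or 3. Without control replicate 3 its log2 fold change was -0.111 (adjusted p = 0.26 by edgeR).

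The lists were described by counts and medians only and were not tested as sets, and no gene stands in more than 1 of them. With 14 to 20 tested genes a list, the counts of calls are no result about the lists as groups.

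**Figure D5:**
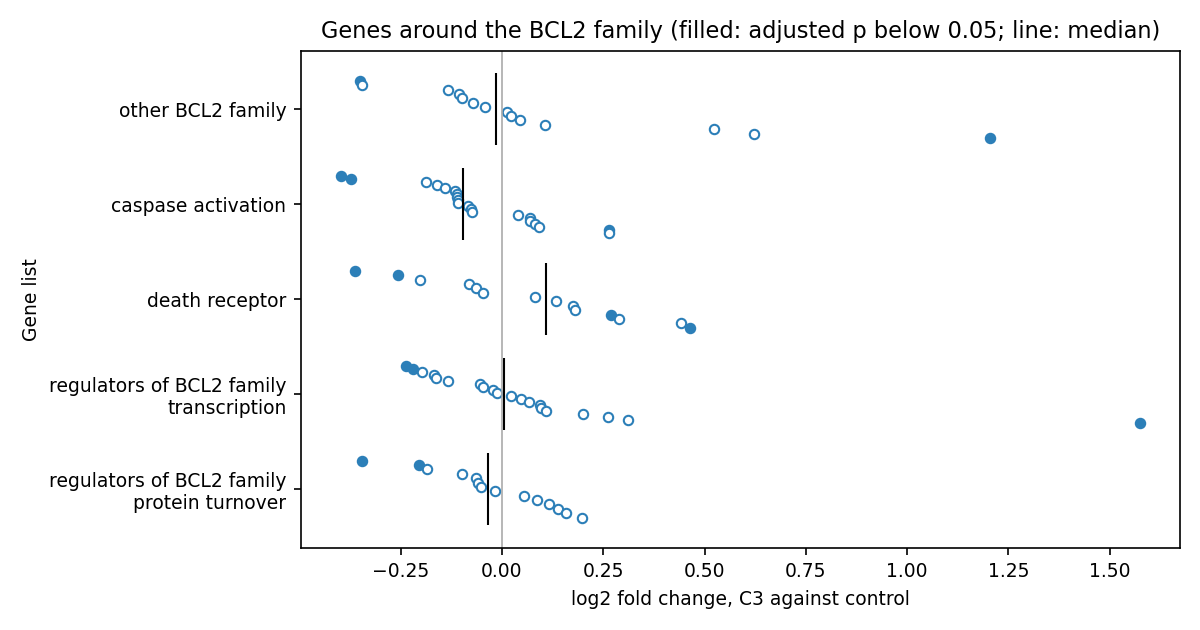
Log2 fold change of C3 against control by edgeR for the tested genes of 5 lists (vertical axis). Each point is a gene, filled where the adjusted p was below 0.05, and black lines are list medians, which lie between -0.10 and 0.11.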

How the data were processed

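The authors trimmed reads (fastp), aligned them (STAR 2.6.1d, GRCh38/hg38) and summed them by gene (featureCounts 1.5.0-p3), per the methods and the submitters' processing notes. The deposited values are raw counts of 58735 genes in 6 libraries, not normalized. Columns were matched to samples by the titles. For the annotation release and strand setting, no value is given in the sources used here.

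Here, the 15078 genes reaching 10 counts in 3 or more libraries (99.9% of counts) were scaled by TMM. The groups were compared in R 4.3.3 by the quasi-likelihood test of edgeR (version 4.0.16), and p-values were adjusted over all tested genes by Benjamini-Hochberg. Normalized counts are counts over the effective library size, times its mean. Standard errors are the log2 fold change over the root of F. Intervals are 95%. Single genes and ratios (pseudocount 0.5) had exact permutation tests (scipy 1.17.1). Of the identifiers, 58207 matched GENCODE release 44, which gave symbols, positions, lengths and overlaps. Library totals differ by less than 1.5-fold, and the spread between libraries corresponded to a coefficient of variation of 6.21%.

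Members and lists were chosen with earlier results of these data known. All members were named. Other lists named up to 4 DEGs by p, or with fewer than 2 DEGs the first 2 genes passing an adjusted p of 0.05. Alternatives were DESeq2 (1.42.0), limma-voom (limma 3.58.1), RLE factors or library size alone for scaling, a replicate block, each library left out, and count filters that were absent or required a mean of 50. GC correction (loess span 0.3), with and without the block, and single list genes were added after the data were seen. The methods were tested on simulated data. Some genes of the lists, and 1 list, are not reported here.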

Additional observations from a re-analysis of the deposited data

How the results depend on the processing

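With 3 libraries a group, the 95% intervals of the members that were not called still allow small changes in either direction, and the spread need not cover independent cultures. BID kept its direction in all 15 alternative fits and its call in 12, with log2 fold changes from -0.31 to -0.19. The call was lost with library size alone (-0.185, adjusted p = 0.0617), which left 0 members called, and its range with each library left out was -0.307 to -0.219 (0 to 1 members lower). Libraries with the same replicate number gave correlations of deviations from 0.0123 to 0.0297 and -0.042, so no pairing was seen. With 3 libraries a group, this check cannot exclude a pairing. With the replicate block, BID had -0.256 (adjusted p = 0.00265) and 1852 genes were higher and 1550 lower overall.

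Signs of members near 0 changed, with adjusted p-values of at least 0.41 by edgeR. With library size alone, which shifted the median of all genes to 0.076, BCL2L1 had 0.073, MCL1 0.0747, BAK1 0.0325, BBC3 0.0152 and BCL2L11 0.0173. Without a count filter BCL2L1 had 0.00999 and MCL1 0.0104, and with a mean count of at least 50 they had 0.0136 and 0.0135. GC correction gave MCL1 0.0243, and 0.0226 with the block. Ranges with each library left out were -0.0182 to 0.0146 for BCL2L1, -0.0267 to 0.0469 for MCL1, -0.00215 to 0.134 for BAX, -0.0996 to 0.0101 for BAK1 and -0.141 to 0.00608 for BCL2L11. The ratio differences ranged from -0.148 to 0.0414 for BAK1 to MCL1, -0.148 to 0.00995 for BCL2L11 to BCL2L1 and -0.0652 to 0.0444 for BCL2L1 to MCL1. Those of BAX to BCL2 and PMAIP1 to MCL1 stayed positive but moved widely, from 0.0357 to 0.299 and from 0.0135 to 0.14.

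With DESeq2, 0 other family genes, 0 caspase activation genes and 1 death receptor gene were higher. With library size alone, 2 other family genes, 5 transcription regulators and 2 turnover regulators were higher, and 1 death receptor gene, 0 transcription regulators and 1 turnover regulator were lower. With the block, 2 other family genes were higher and 2 lower, 2 transcription regulators higher and 4 lower, and 1 turnover regulator higher. With each library left out, higher and lower calls were 1 to 2 and 1 to 2 for other family genes, 0 to 1 and 1 to 3 for caspase activation, 1 to 2 and 1 to 2 for death receptors, 1 to 3 and 0 to 4 for transcription regulators, and 0 and 1 to 2 for turnover regulators. Over all genes, leaving out a library gave 1053 to 1860 higher, 591 to 1891 lower and 645 to 1106 DEGs, against 1658, 1323 and 983, where leaving out C3 replicate 3 gave the fewest and leaving out C3 replicate 1 the most. The causes were not tested.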

Other observations

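BID and BCL2L13, the family genes called lower, are neighbours on chromosome 22 of GRCh38. BCL2L13 lies on the forward strand from 17628855 to 17730855, and 3282 bases separate its end from the end of BID on the reverse strand. Among 10 other tested genes within 500 kb of BID, 2 were called lower (BCL2L13 and the interferon-stimulated gene USP18, -0.43, adjusted p = 0.00317 by edgeR) and 1 was called higher (the chromatin remodelling gene CECR2, 0.71, adjusted p = 0.00645). The genes next to the pair, ATP6V1E1 (-0.14), LINC00528 (0.07) and MICAL3 (0.27), were not called. Of 388 tested genes on chromosome 22, 43 were higher and 48 lower, with a median log2 fold change of -0.01. These genes were looked at after the values of BID and BCL2L13 were seen.

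ABALON, a long noncoding RNA gene antisense to BCL2L1, was examined because it shares exon bases with BCL2L1. Its normalized counts were 52.9, 66.8 and 47.8 in control and 91.1, 80.4 and 107 in C3 libraries, without overlap. edgeR gave a log2 fold change of 0.73 with an SE of 0.19 (adjusted p = 0.0068), while BCL2L1 itself was at -0.000060. The call at an adjusted p below 0.05 was lost without C3 replicate 3 (adjusted p = 0.0745). Since the strand setting is not given in the sources used here, reads of ABALON and BCL2L1 cannot be told apart with certainty.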
